A study of Homo sapiens with 21 samples.

Results

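Collagen and laminin chain genes, which encode the fibres and the basement membrane around cells, and integrin subunit genes, which encode the receptors that bind them, were followed in cells that carry the label HepG2 (an established human liver cancer line) after 6 h of coumarin, a plant-derived fragrance compound. The genes were taken by symbol: protein-coding rows of the count table named as a collagen alpha chain, a laminin alpha, beta or gamma chain, or an integrin alpha or beta subunit. This gave 82 of 58735 genes, of which 44 were collagen, 12 laminin and 26 integrin genes, the integrins being 18 alpha and 8 beta subunits. Coumarin was given at 0.001, 0.01, 0.1, 1, 10 or 100 µM in fresh serum-free DMEM, and the cells at 0 µM received the same medium without it. Each of the 7 doses had 3 libraries, which the design text calls biological replicates; the labels do not say whether the cultures were grown separately, so the p-values measure the spread between these 21 libraries. All cells were detached with trypsin-EDTA before RNA was taken, and the RNA was selected with poly(dT) beads.

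A collagen molecule is a triple helix of alpha chains, made of 1 gene's product or of several. Fibrillar collagens bear load, and collagen IV forms the network of basement membranes together with laminins, which are trimers of an alpha, a beta and a gamma chain. An integrin is a pair of an alpha and a beta subunit, and the pair decides whether a cell binds collagen, laminin, fibronectin or vitronectin, or frees TGF-beta from its latent complex. In liver tissue most fibrillar collagen is made by stellate cells and fibroblasts rather than by hepatocytes.

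The libraries held 27984517 to 43704155 counts. Of 10 hepatocyte marker genes none had enough counts to be tested, 3 had no read, albumin (ALB) among them, and their summed FPKM (fragments counted for each kilobase of a gene and scaled to library size) was between 0 and 0.0260 per library, so the labelled cell type was not seen in its defining transcripts. Of 10 epithelial markers 7 were tested, with KRT8, KRT7 and KRT18 at 345, 298 and 293 FPKM at 0 µM, EPCAM at 0 reads and KRT19 at 1 read. Of 10 mesenchymal markers 9 were tested, led by VIM at 55.2 FPKM. Of 8 blood and endothelial markers 2 were tested, and 2 had no read.

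Enough counts to be tested were present for 51 of the 82 genes: 25 collagen, 11 laminin and 15 integrin genes. At 0 µM 29 genes reached a mean of 1 FPKM (13 collagen, 8 laminin and 8 integrin genes) and 15 reached 10 FPKM (5, 6 and 4). The 31 genes that were not tested had at most 152 reads each over all 21 libraries. Of these, ITGA9 and COL22A1 had no read among 731958551, which allows a level of up to 0.0041 CPM (counts scaled to the library total), and COL1A2, COL6A5, ITGA8, ITGAX, LAMB4, COL13A1, COL28A1 and ITGAL had 1 or 2 reads.

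Among the collagens COL3A1, the single chain of fibrillar collagen III, stood far above the others. It had 133, 130 and 136 FPKM at 100 µM, against 143, 143 and 143 FPKM at 0 µM, and made up 44.2% of the summed collagen FPKM (42.4% to 45.8% over the 21 libraries). COL12A1, a chain that sits on the surface of fibrils, came next with 50.5 ± 0.5 FPKM at 100 µM and 55.6 ± 1.5 FPKM at 0 µM (SD, n = 3 each, as for all such values). COL5A1, the collagen V chain that sets fibril diameter, followed with 34.1, 32.0 and 33.0 FPKM at 100 µM, against 30.1, 31.2 and 33.5 FPKM at 0 µM. These 3 genes held 70.9% of the collagen sum on average. Then came COL7A1, the anchoring fibril chain of epithelia, with 19.6 ± 0.5 FPKM at 100 µM and 19.7 ± 1.2 FPKM at 0 µM, and the basement membrane chain COL4A2 with 19.5 ± 0.4 and 18.5 ± 0.8 FPKM, and the ranges of these genes overlapped at 0 µM. COL4A1 (9.36 ± 0.25 FPKM at 100 µM and 8.96 ± 0.05 FPKM at 0 µM) and COL18A1, the precursor of endostatin (9.65 ± 0.42 and 8.87 ± 0.44 FPKM), were also not separated from each other at 0 µM. For COL18A1 16.4% of the exonic length overlaps SLC19A1 on the other strand. COL15A1, a basement membrane chain, had 7.04 ± 0.42 FPKM at 100 µM and 7.02 ± 0.35 FPKM at 0 µM, and its range overlapped with the next gene in the order. FPKM divides each count by the gene length given with the data, 19293 bases for COL4A2 and 11189 for COL5A1. Their reads over all libraries were 259766 and 256644, so the order, shares and ratios between genes depend on that length.

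Partner chains were often present at very unequal levels. Collagen I is normally built from COL1A1 and COL1A2 chains: COL1A1 had 7.19, 6.28 and 7.31 FPKM at 100 µM, against 5.60, 5.96 and 6.57 FPKM at 0 µM, while COL1A2 had 1 read in all 21 libraries. Collagen V commonly pairs COL5A1 with COL5A2, and COL5A1 stood 220 ± 83 times above COL5A2 at 100 µM and 181 ± 28 times at 0 µM. COL4A2 and COL4A1 of the collagen IV network, by contrast, held a steady ratio. COL4A2 was 2.08 ± 0.02 times COL4A1 at 100 µM and 2.07 ± 0.09 times at 0 µM, with 1.93 to 2.19 over all libraries. COL4A1 (chr13:110148963-110307233, minus strand) and COL4A2 (chr13:110305812-110513209, plus strand) lie head to head on GRCh38 and overlap at their 5′ ends. The other head-to-head collagen IV pairs were COL4A4 with COL4A3, whose ratio was 1.43 ± 0.07 at 100 µM and 1.32 ± 0.06 at 0 µM, and COL4A5 with COL4A6, whose ratio was 23.3 ± 5.5 at 100 µM and 26.0 ± 1.4 at 0 µM. Over all libraries these ratios spanned 1.26 to 1.81 and 18.8 to 29.4. COL3A1 was 19.2 ± 1.2 times COL1A1 at 100 µM and 23.8 ± 1.9 times at 0 µM.

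The laminins were led by the chains of one widespread basement membrane trimer, LAMC1, LAMA5 and LAMB1. LAMC1 (gamma) had 42.5 ± 0.5 FPKM at 100 µM and 43.8 ± 1.1 FPKM at 0 µM, LAMA5 (alpha) 35.1 ± 2.6 and 35.5 ± 2.7 FPKM, and LAMB1 (beta) 23.2 ± 0.3 and 23.7 ± 0.2 FPKM. LAMB2, the beta chain of neuromuscular and glomerular laminins, had 17.5 ± 0.5 FPKM at 100 µM and 16.4 ± 0.8 FPKM at 0 µM, and the gamma chain LAMC3 14.6 ± 1.0 and 13.8 ± 0.9 FPKM. The ranges of LAMC3 and LAMB3 overlapped at 0 µM, while each of the other leading laminins was separate from the next. In epithelia LAMB3 and LAMA3 chains join in one trimer, and LAMB3 was 9.52 ± 0.16 times LAMA3 at 100 µM and 8.87 ± 0.33 times at 0 µM.

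ITGB1, the beta subunit shared by most collagen, laminin and fibronectin receptors, led the integrins with 104, 106 and 110 FPKM at 100 µM, against 120, 117 and 111 FPKM at 0 µM. The 12 alpha genes known to pair with it summed to 35.2 ± 1.1 FPKM at 100 µM and 37.1 ± 1.2 FPKM at 0 µM. The leading alpha genes were ITGAV, the vitronectin receptor subunit, with 14.4 ± 0.7 FPKM at 100 µM and 15.5 ± 0.9 FPKM at 0 µM, and the laminin receptor subunit ITGA3 with 10.1 ± 0.2 and 10.5 ± 0.3 FPKM. ITGAE had 7.92 ± 0.16 FPKM at 100 µM and 7.44 ± 0.48 FPKM at 0 µM, although its known partner ITGB7 had 9 reads in all libraries. The exonic length of ITGAE overlaps HASPIN by 6.41% and that of ITGB7 overlaps ZNF740 by 42.1%, each on the other strand. ITGA5 (fibronectin), ITGA6 (laminin), ITGA1 and ITGA2 (collagen) had 4.40, 3.15, 2.22 and 0.818 FPKM at 100 µM, against 4.26, 3.38, 2.46 and 0.942 FPKM at 0 µM. Of the beta genes, after ITGB1 only ITGB5 exceeded 1 FPKM at 0 µM. ITGB3, ITGA4, ITGA8, ITGA9 and the leukocyte subunits ITGAL, ITGAM and ITGAX were among the genes with too few counts to be tested. The exonic length of ITGB3 overlaps AC068234.1 on the same strand by 51.6%. How reads in such overlaps were assigned is not known, so reads of ITGB7 and ITGB3 may be missing there. The remaining exonic length of these 2 genes lies outside these overlaps. It gave at most 9 reads for ITGB7 and 58 for ITGB3 in all libraries.

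**Figure D1:**
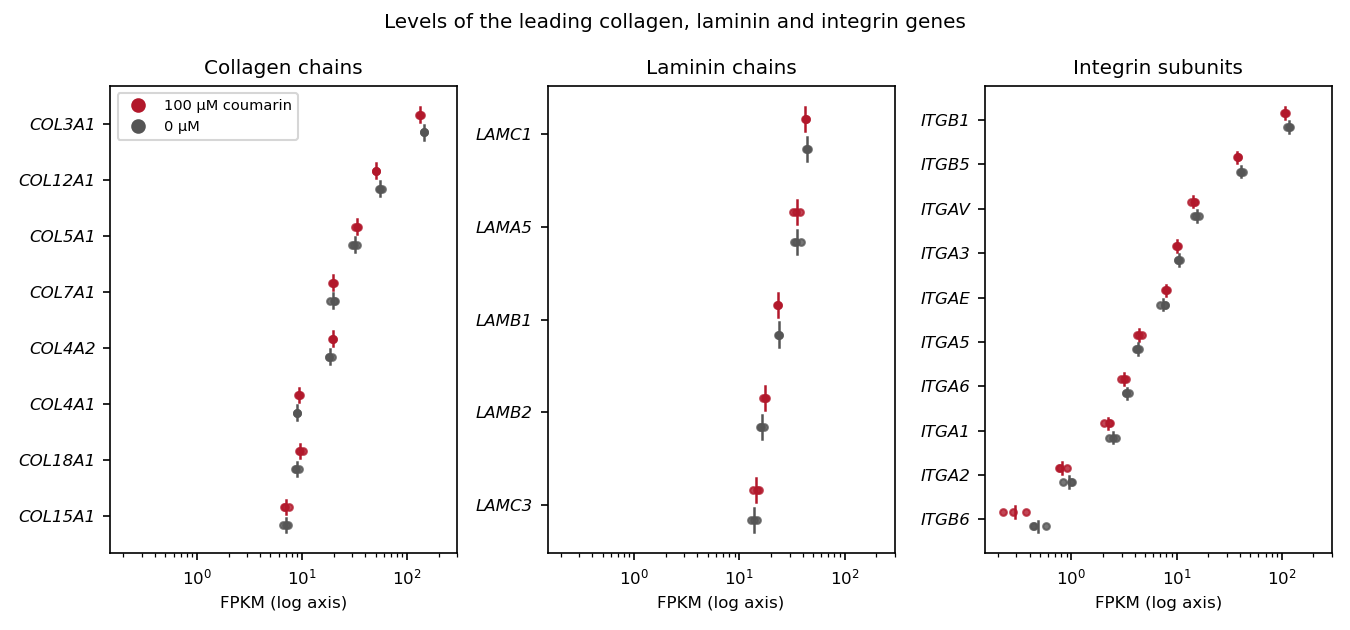
FPKM on a log axis for the 8 collagen, 5 laminin and 10 integrin genes with the highest means at 0 µM, 1 point per library and a bar at the mean, with 100 µM above 0 µM for each gene. COL3A1 and ITGB1 stand above 100 FPKM in both groups, and ITGB6, at the foot of the integrin panel, is the gene whose groups stand farthest apart.

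Few of these genes differed between 100 µM and 0 µM. Of 51 tested, 5 were lower (9.80%) and 0 higher, by edgeR's quasi-likelihood test with p adjusted over all 16196 tested genes and a threshold of 0.05. In the same test 8.58% of all tested genes differed, 4.82% lower and 3.77% higher, so the share of these genes that differed in either direction was near that of the whole table. The 5 were the integrin genes ITGB6 and ITGB5, the collagen genes COL3A1 and COL16A1, and the laminin gene LAMA1. At an unadjusted p under 0.05 there were 10 lower (19.6%) and 3 higher (5.88%), against 12.3% and 10.8% of all tested genes. By family 2 of 25 collagen, 1 of 11 laminin and 2 of 15 integrin genes were lower, and the median log2 fold change was 0.003, -0.03 and -0.11 in the 3 families, against 0.002 over all tested genes. The median size of change, regardless of direction, was 0.098 over the 51 genes and 0.11 over all tested genes. The calls rested on single libraries: without 0 µM replicate 1, 2 or 3 there were 3, 1 and 5 called genes, of which 3, 1 and 1 were among these 5, and without 100 µM replicate 1, 2 or 3 there were 1, 1 and 2, of which 0, 0 and 2 were. Of 16 alternatives the call was lost in 10 for COL3A1 and COL16A1, 9 for ITGB5 and 5 for LAMA1. With limma on log2(FPKM + 1) there were 3 calls, and with an offset for gene length there were 2, ITGB6 lower and COL4A1 higher. The 51 genes had a median length of 8211 bases, against 4233 over all tested genes. Per doubling of length, log2 levels shifted by -0.0094 to -0.0067 in the 100 µM libraries and -0.0018 to 0.015 at 0 µM. With the offset the median log2 fold change of the 51 genes was -0.015, against -0.040 without it. The part of gene length in the downward lean was not tested.

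ITGB6 (ENSG00000115221, chr2:160099666-160200313, minus strand) showed the largest change among the called genes. It encodes the epithelial beta subunit that pairs with ITGAV and activates latent TGF-beta. It had 0.223, 0.278 and 0.368 FPKM at 100 µM, from 31, 45 and 58 reads, against 0.443, 0.571 and 0.432 FPKM at 0 µM, from 73, 75 and 67 reads. All 3 libraries at 100 µM were below each of the 18 others, which spanned 0.376 to 0.571 FPKM with a median of 0.466. The log2 fold change was -0.71 (SE 0.19, adjusted p = 0.015), lower in 3 of 3 libraries. The call was lost without 0 µM replicate 2 or without 100 µM replicate 1 or 2, and 20.6% of its exonic length overlaps AC092153.1 on the same strand, so reads there cannot be assigned to ITGB6 with certainty. ITGAV itself was not called (log2 fold change -0.10, SE 0.067, adjusted p = 0.414).

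ITGB5 (ENSG00000082781, chr3:124761948-124901418, minus strand), another partner of ITGAV and a vitronectin receptor subunit, was far more abundant. It had 37.9, 37.2 and 38.0 FPKM at 100 µM, against 40.8, 39.9 and 43.2 FPKM at 0 µM. The 100 µM libraries again lay below all 18 others, which spanned 39.7 to 44.9 FPKM with a median of 42.2. The log2 fold change was -0.13 (SE 0.039, adjusted p = 0.037), and ITGB1 was 2.83 ± 0.08 times ITGB5 at 100 µM and 2.82 ± 0.22 times at 0 µM.

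COL3A1 (ENSG00000168542, chr2:188974320-189012746, plus strand) fell by 0.11 on the log2 scale (SE 0.033, adjusted p = 0.0405), with all 3 libraries at 100 µM below the 137 to 149 FPKM of the 18 others. COL16A1 (ENSG00000084636, chr1:31652247-31704319, minus strand), a minor chain found with fibrils, had 0.434, 0.416 and 0.407 FPKM at 100 µM, against 0.445, 0.589 and 0.609 FPKM at 0 µM. Its log2 fold change was -0.38 (SE 0.12, adjusted p = 0.0438), and the 18 other libraries spanned 0.445 to 0.647 FPKM. LAMA1 (ENSG00000101680, chr18:6941744-7117814, minus strand), the alpha chain of the embryonic laminin, had 5.83, 5.62 and 6.04 FPKM at 100 µM, against 6.36, 6.68 and 6.49 FPKM at 0 µM. Its log2 fold change was -0.15 (SE 0.045, adjusted p = 0.0296), and 10.3% of its exonic length overlaps AP002409.1 on the other strand. For each of these 3 genes, as for ITGB6 and ITGB5, the groups at 100 µM and 0 µM did not overlap.

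Among the markers that were not called, the log2 fold change of COL1A1 was 0.20 (SE 0.066, adjusted p = 0.0539), with its groups overlapping, and it was called higher by DESeq2. COL5A1 had 0.07 (SE 0.042, adjusted p = 0.346), again with overlapping groups. ITGB1 had -0.12 (SE 0.041, adjusted p = 0.072), with 3 of 3 libraries below the controls, and was called lower by DESeq2. COL12A1 had -0.13 (SE 0.052, adjusted p = 0.108). The summed FPKM of the integrin beta genes was 143 to 149 at 100 µM, against 150 to 164 in the 18 other libraries. ITGB1 and ITGB5 made up nearly all of it, with means of 116 and 41.3 FPKM in a sum of 159 FPKM at 0 µM. The summed FPKM of the collagens was 304 to 313 at 100 µM, against 306 to 334 in the others.

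Non-overlap of the groups was also counted. All 3 libraries at 100 µM were below all 3 at 0 µM in 13 of the 51 genes (25.5%), against 14.8% of all tested genes, and above them in 2 (3.92%), ITGAE and COL4A1, against 12.0%. They were below all 18 other libraries in 5 genes (9.8%), which are the 5 called, against 3.83% of all tested genes, and above all 18 in 0, against 2.07%. These counts were not tested, and they carry no offset for gene length.

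Markers of other cell types were counted in the same comparison, where 4.82% of all tested genes were lower and 3.77% higher. Of 7 tested epithelial markers 3 were called lower at 100 µM, ELF3 and KRT18 among them, 0 were higher and 4 were not called, such as KRT7 (log2 fold change -0.06, adjusted p = 0.43), and the summed FPKM over the list was 854 to 885 at 100 µM, against 901 to 981 at 0 µM. Of 9 tested mesenchymal markers 2 were lower (PDGFRB and FAP) and 0 higher, with a sum of 98.2 to 99.3 FPKM at 100 µM, against 101 to 103 FPKM at 0 µM. Of the 2 tested blood and endothelial markers CDH5 was lower. The other, ITGA2B, belongs to the integrin genes followed here and was not called. The list sum, which includes ITGA2B, was 0.148 to 0.208 FPKM at 100 µM, against 0.249 to 0.304 FPKM at 0 µM. The part of these shifts in the collagen, laminin and integrin results was not tested, and in bulk RNA fewer cells of a type and less RNA per cell cannot be told apart.

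**Figure D2:**
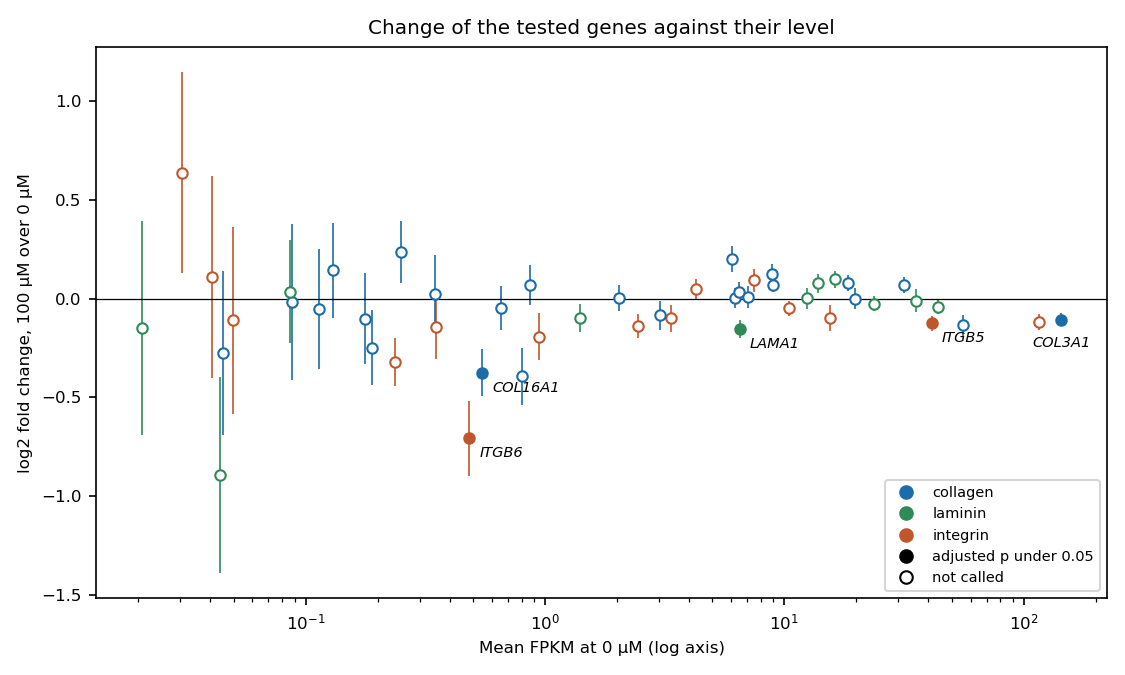
Log2 fold change of the 51 tested genes at 100 µM over 0 µM against mean FPKM at 0 µM on a log axis; bars are 1 standard error, and filled points are the 5 genes with an adjusted p under 0.05. Among the 29 genes at 1 FPKM or more the changes lie between -0.15 (LAMA1) and 0.20 (COL1A1), and the standard errors widen below 1 FPKM.

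For the 29 genes at 1 FPKM or more the standard error of the log2 fold change at 100 µM was 0.033 to 0.073, and 28 of them lay within 0.2 of 0. For the 22 tested genes under 1 FPKM it was 0.10 to 0.54, so that differences of the size seen at COL3A1 or LAMA1 were not detectable there. Over all 21 libraries the coefficient of variation of the 29 genes was 2.50% to 7.64%, with a median of 4.63%, the smallest at LAMB1 and the largest at COL1A1.

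Below 100 µM no gene of the 3 families was called. At 10 µM 0 of 51 differed from 0 µM, where 0.321% of all tested genes did (edgeR; 0.0803% lower and 0.241% higher), with 0 by DESeq2 and 3 (5.88%) at an unadjusted p under 0.05, against 1938 of all 16196. At 0.001, 0.01, 0.1 and 1 µM 0 of 51 differed by edgeR and by DESeq2, and edgeR called 0% of all tested genes at each of these doses. At an unadjusted p under 0.05 there were 2, 3, 1 and 2 (3.92%, 5.88%, 1.96% and 3.92%), against 8.21%, 8.74%, 6.09% and 3.76% of all tested genes. Over these 5 doses the log2 fold changes of the 29 genes at 1 FPKM or more stayed between -0.14 (ITGA1 at 0.001 µM) and 0.15 (ITGA5 at 0.1 µM).

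**Figure D3:**
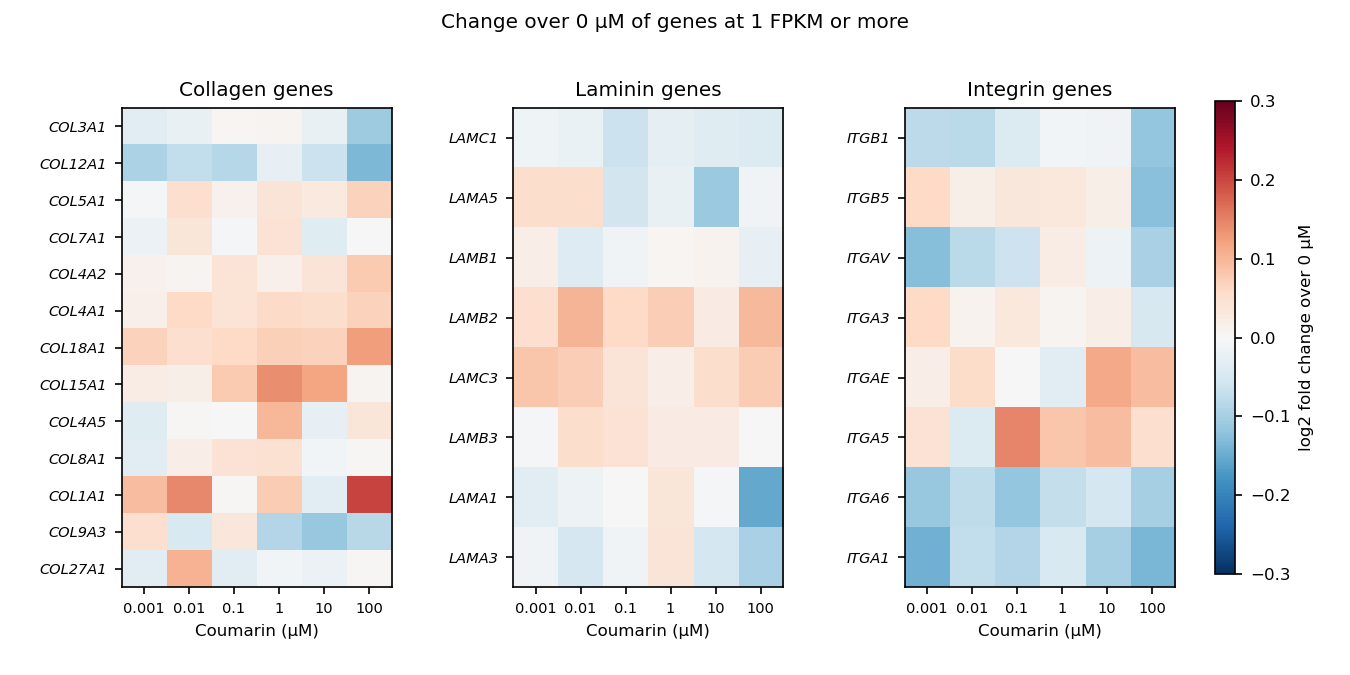
Log2 fold change over 0 µM (colour) at each coumarin dose in µM for the 29 genes at 1 FPKM or more, ordered by level within the collagens, laminins and integrins. The columns from 0.001 to 10 µM hold no called gene, and in the column of 100 µM COL3A1, LAMA1 and ITGB5 are called lower.

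Setting 100 µM against the mean of the low doses from 0.001 to 1 µM gave 6 lower genes (11.8%) and 0 higher, against 9.83% of all tested genes in either direction, 5.58% lower and 4.25% higher. The contrast itself holds no 0 µM library, but those libraries are part of the fit that gave the spread. These were ITGB5, ITGB6, COL16A1, LAMA1, COL3A1 and COL9A2, a chain of the cartilage collagen IX. The comparison shares its 100 µM libraries with the one against 0 µM. The log2 fold change was -0.16 for ITGB5 (SE 0.031, adjusted p = 0.000453), ITGB6 -0.69 (SE 0.15, adjusted p = 0.00264), COL16A1 -0.42 (SE 0.096, adjusted p = 0.00273), LAMA1 -0.15 (SE 0.036, adjusted p = 0.00506) and COL3A1 -0.10 (SE 0.026, adjusted p = 0.0163). COL9A2 (ENSG00000049089, chr1:40300487-40317813, minus strand) had 0.761, 0.612 and 0.465 FPKM at 100 µM, against 0.651 to 0.932 FPKM with a median of 0.826 in the 18 other libraries, so its groups overlapped. Its log2 fold change was -0.45 (SE 0.11, adjusted p = 0.00859) against the low doses and -0.39 (SE 0.14, adjusted p = 0.0809) against 0 µM. The same 6 genes were called under every other setting tried that kept all libraries, and 4 to 6 genes when 1 library was left out.

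Over all 7 doses together 1 of 51 genes differed, ITGB5 (edgeR adjusted p = 0.0326), against 4.65% of all tested genes, and 9 (17.6%) had an unadjusted p under 0.05, as did 17.6% of all tested genes. This count went to 0 without replicate 1 at 0.001 µM, replicate 3 at 0.01, 10 or 100 µM, or replicate 2 at 10 µM, to 2 without replicate 3 at 0 µM and to 4 without replicate 1 at 0.1 µM. A linear trend over the logarithm of dose among treated libraries was called in 3 genes (5.88%), all downward, against 4.45% of all tested genes, 2.52% downward and 1.93% upward. These were ITGB5 (-0.03 log2 units per 10-fold dose, adjusted p = 0.0119), COL9A2 (-0.09, adjusted p = 0.0192) and ITGB6 (-0.11, adjusted p = 0.0437), and the count was 0 without 100 µM replicate 2 and 1 without 0.001 µM replicate 1. Of 28 alternatives the trend call was lost in 14 for ITGB6 (adjusted p up to 0.189), 3 for COL9A2 and 1 for ITGB5. ITGB6 averaged 0.469, 0.465, 0.478, 0.477, 0.434 and 0.290 FPKM from 0.001 to 100 µM, level over the lower doses and lowest at the top one. Over the same doses ITGB5 averaged 43.2, 41.7, 42.5, 42.1, 42.0 and 37.7 FPKM, without a steady fall below 100 µM. COL9A2 averaged 0.858, 0.877, 0.889, 0.725, 0.793 and 0.613 FPKM.

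**Figure D4:**
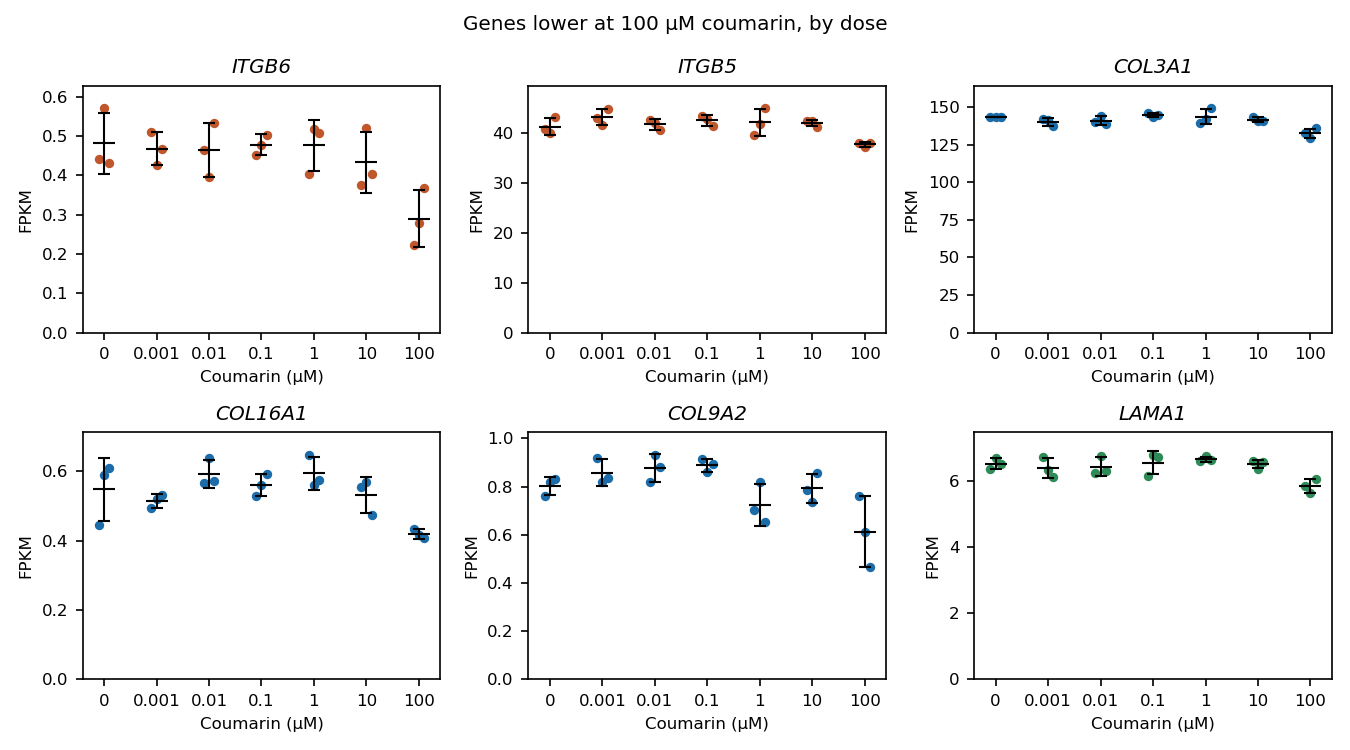
FPKM of the 6 genes lower at 100 µM in at least 1 comparison, by coumarin dose in µM; points are libraries and bars the mean ± SD of 3. The points at 100 µM lie below all others in 5 panels, and in the panel of COL9A2 they overlap with lower doses.

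The stretches before the start sites of 3 of these genes are printed, since these are the called genes with an entry outside exons, and for ITGB5 the outermost of 3 such stretches is shown. RefSeq promoter entries (GRCh38.p14) were matched for 58 of the 82 genes and for 4 of the 6 called, and only bases before a start site that lie in no annotated exon are given, in the direction of the gene, with motif matches in capitals.
ITGB6, chr2:160200314-160200522, minus strand: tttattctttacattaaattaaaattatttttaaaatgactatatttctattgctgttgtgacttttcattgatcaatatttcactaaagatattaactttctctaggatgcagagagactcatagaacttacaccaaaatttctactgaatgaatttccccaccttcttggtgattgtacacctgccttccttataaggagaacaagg
ITGB5, chr3:124901419-124901668, minus strand: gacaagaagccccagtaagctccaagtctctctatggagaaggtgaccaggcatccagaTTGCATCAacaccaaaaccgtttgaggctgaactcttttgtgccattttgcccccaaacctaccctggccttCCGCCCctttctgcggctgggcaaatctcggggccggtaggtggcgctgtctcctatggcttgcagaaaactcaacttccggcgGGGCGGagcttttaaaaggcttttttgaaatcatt
COL9A2, chr1:40317389-40317536, minus strand: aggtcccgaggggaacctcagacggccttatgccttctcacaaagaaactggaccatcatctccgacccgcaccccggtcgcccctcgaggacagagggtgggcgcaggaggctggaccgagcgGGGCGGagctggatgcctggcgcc
The motifs were searched on both strands, none of which contains another: the AP-1 site TGANTCA, the cAMP response element TGACGTCA, the ATF4-type element TGATGNAA, the CCAAT box CCAAT, the GC box GGGCGG and the TATA box TATAAA. The stretch of ITGB5 holds an ATF4-type element on the other strand and 2 GC boxes, and that of COL9A2 holds 1 GC box, while that of ITGB6 holds no match to any of them. Of the inner stretches of ITGB5 one of 234 bases holds 3 GC boxes and one of 107 bases holds no match. Over 34943 RefSeq windows of 250 bases before a start site 42.5% held a GC box, 32.0% a CCAAT box, 10.8% a TATA box, 6.59% an AP-1 site, 3.15% an ATF4-type element and 1.63% a cAMP response element. These windows were not cut at exons, while the stretches of ITGB6 and COL9A2 were cut to 209 and 148 bases, so the shares are for longer stretches. A match describes letters only. The stretch of COL9A2 lies inside the annotated span of that gene, and which start sites these cells use was not tested.

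Other genes of the matrix and its receptors were counted from lists in the same fit, where 4.82% of all tested genes were lower and 3.77% higher at 100 µM. Of 23 tested genes for collagen processing 0 rose and 1 fell at 100 µM, P3H3, a proline hydroxylase family gene, with 0.0392 ± 0.0151 FPKM at 100 µM and 0.122 ± 0.027 FPKM at 0 µM (log2 fold change -1.59, SE 0.36, adjusted p = 0.00375). Of 21 other matrix proteins 0 rose and 5 fell, the first being NTN4, a basement membrane netrin (-0.34, SE 0.038, adjusted p = 1.11e-07, with 21.8 ± 0.6 FPKM at 100 µM and 27.7 ± 0.3 FPKM at 0 µM). With it fell THBS1, encoding thrombospondin (-0.33), CTGF, a matricellular YAP target (-0.24, with 85.6 ± 3.4 FPKM at 100 µM and 101 ± 4 FPKM at 0 µM), and EFEMP1, a fibulin (-0.16). The median log2 fold change was 0.02 for collagen processing and -0.07 for the other matrix proteins, against 0.002 over all tested genes.

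Of 10 other matrix receptors 1 rose and 2 fell, with a median log2 fold change of -0.04. DDR2, a collagen receptor kinase, rose by 1.05 (SE 0.15, adjusted p = 1.39e-05), with 0.456 ± 0.024 FPKM at 100 µM and 0.221 ± 0.027 FPKM at 0 µM, while the hyaluronan receptor CD44 fell by 0.17 and the syndecan SDC4 by 0.23. Of 27 integrin adaptors 2 rose and 5 fell, with a median of -0.05. The tensins TNS3 and TNS4, which bind integrin tails, fell by 0.26 and 0.73, VCL (vinculin) fell by 0.16, and ILK, the integrin-linked kinase, rose by 0.71 (SE 0.15, adjusted p = 0.0028), with 1.75 ± 0.20 FPKM at 100 µM and 1.07 ± 0.11 FPKM at 0 µM. None of these genes was called at 10 µM (edgeR, 0 of 23, 21, 10 and 27).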

How the data were processed

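RNA-seq of 21 libraries was grouped by label into 7 coumarin doses of 3. The authors deposited whole-number gene counts and, in a second table, FPKM with a gene length. Per the submitters' processing notes HISAT2, DESeq2 and the build GRCh38 were used, in unstated roles; how strand was used and which tool counted reads is not given in the sources used here. Deposited FPKM values equal counts over gene length and 1 constant per library (deviation up to 2.18e-08 at 100 or more reads). All 58735 genes have the coordinates of GENCODE 29.

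Genes kept by filterByExpr entered 1 robust quasi-likelihood fit of the 7 groups with TMM scaling (edgeR 4.0.16, R 4.3.3; 14 residual degrees of freedom); Benjamini-Hochberg adjustment ran over 16196 genes with a threshold of 0.05. Standard errors were computed as the fold change over the root of F. The script was tested on simulated counts. Levels are FPKM, compared between genes only per length; a count of 3 corresponds to 0.0686 to 0.107 CPM in a library, which covers counting error only. Replicates differed beyond sampling noise, with a chi-square over its degrees of freedom of 2.68 to 12.2, and the common biological coefficient of variation was 0.0436.

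The genes and lists were chosen with earlier results of these data known. Named are the called genes, COL3A1, COL5A1, COL1A1 and ITGB6, the 8 collagen, 5 laminin and 10 integrin genes with the highest FPKM at 0 µM, genes with at most 3 reads, and up to 4 called genes per pathway list; partner chains and untested integrins were named after their values were seen. Of the listed pathway and marker symbols 2 were matched through newer symbols (CTGF and CYR61 in the files). Alternatives were DESeq2 1.42.0 and its size factors, limma 3.58.1 on log2 FPKM, other filters, the replicate number as a block, a gene-length offset, fits of the compared groups only, edgeR without robust estimation (chosen after seeing the data) and each library left out. Figures were drawn with matplotlib 3.10.9.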

Additional observations from a re-analysis of the deposited data

How the results depend on the processing

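The count of genes called in either direction at 100 µM against 0 µM (5, all lower) was 3 with limma on log2(FPKM + 1), 3 with limma on log2(FPKM + 0.1) and 2 (1 of them higher) with an offset for gene length; the cause was not tested. It was 7 with DESeq2, 6 with a mean CPM of at least 1, 5 in a fit of the compared groups only and 4 with no filter, each with 1 gene higher (COL1A1), and 4 with the replicate number as a block, which dropped COL3A1. Leaving out 1 library gave 1 to 5, of which up to 3 were higher. The count over the 7 doses (1) was 4 with DESeq2, 0 and 0 with limma at either pseudocount, 4 with no filter and 2 with the gene-length offset, and 0 to 4 with 1 library left out. The trend count (3) was 0 to 3 with 1 library left out. The count against the low doses (6) was 4 to 6 with 1 library left out, and the counts at 10 µM and below were 0 under every setting. With the replicate block the other counts were 6 against the low doses, 1 over 7 doses and 3 for the trend, each with the same genes as without it. Replicate numbers do not pair the libraries: of 63 same-numbered pairs 0 had deviations correlated above 0.1 (-0.086 to 0.065), and 7 of 21 libraries correlated best with their own number. No called gene changed sign under any setting. Genes under 1 FPKM rest on few reads, and their changes could only have been detected when large.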

Other observations

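Enzymes that cut the matrix and their inhibitors were counted from a list of 16 tested genes, of which 1 rose and 1 fell at 100 µM against 0 µM. Of all tested genes 3.77% were higher and 4.82% lower. MMP15, a membrane metalloproteinase gene, rose by 0.44 on the log2 scale (SE 0.099, adjusted p = 0.00386, edgeR), with 2.10 ± 0.08 FPKM at 100 µM and 1.55 ± 0.31 FPKM at 0 µM. TIMP3, a matrix-bound metalloproteinase inhibitor gene, fell by 0.14 (SE 0.035, adjusted p = 0.00934), with 25.5 ± 0.5 FPKM at 100 µM and 28.2 ± 0.8 FPKM at 0 µM. The other 14 were not called, and at 10 µM none of the 16 was.

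ITGB8, which pairs with ITGAV and was picked here after its values were seen, had the smallest adjusted p of the 51 genes at 10 µM, 0.136 (log2 fold change -0.42). It had 0.234, 0.240 and 0.237 FPKM at 0 µM, while the 3 libraries of each dose had 0.181, 0.183 and 0.204 FPKM at 0.001 µM, 0.160, 0.190 and 0.175 FPKM at 0.01 µM, 0.214, 0.211 and 0.219 FPKM at 0.1 µM, 0.222, 0.236 and 0.223 FPKM at 1 µM, 0.193, 0.171 and 0.170 FPKM at 10 µM and 0.201, 0.199 and 0.169 FPKM at 100 µM. The values do not order with dose, and no dose was called.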
